A study of Panicum sumatrense with 28 samples.

Results

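The crown meristem of the cereal little millet (Panicum sumatrense) was compared with its plumule, the later shoot base against the embryonic shoot. The comparison takes 6 of the 28 RNA-seq libraries of a 10-tissue atlas. It holds 3 crown meristem libraries from 26 days after sowing and 3 plumule libraries from 3 days, chosen by the tissue named in the sample labels. All plants were genotype JK-8, kept in a growth chamber, and RNA came from harvested tissue with a column kit or an organic reagent. The labels do not say which of these each library had, nor whether replicates were separate plants. The p-values therefore cover the spread between samples of a tissue, pooled over the 10 tissues. This spread may be technical.

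The plumule of a grass seedling consists of the shoot apex and the first leaves inside the coleoptile, and it grows at first on the reserves of the grain. The crown is the compressed base of the grass shoot. It carries the shoot meristem and gives rise to tillers and to roots of the adult plant. Both samples are therefore young shoot tissue, at different ages and with different neighbouring organs.

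Values are abundances corrected for transcript length (TPM) that the authors scaled between libraries by TMM (trimmed mean of M-values). Each value belongs to 1 transcript of a de novo assembly. The files give no gene names for these identifiers, so tissue markers and gene groups were not analysed here and the tissue labels were not checked against markers. Transcripts are named by identifier, 2 that were higher and 2 that were lower in crown meristem. In whole tissue, fewer cells of a type and less RNA per cell cannot be told apart.

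Plumule library 1 stood apart. It correlated with plumule libraries 2 and 3 at a Spearman's rho of 0.717 and 0.678 over kept transcripts, where libraries 2 and 3 correlated at 0.833 and the crown meristem pairs at 0.859 to 0.860. Its closest library of all 28 was panicle early library 1, at 0.782. It had 45996 transcripts at 1 or more, of which 5513 reached 1 in no other library. Such transcripts numbered 575 in plumule library 2, 2181 in plumule library 3 and 158 to 405 in the crown meristem libraries. Between 35176 and 37154 transcripts reached 1 in the crown meristem libraries, against 37235 and 41857 in plumule libraries 2 and 3. The median SD between replicates, on the log2 scale, was 0.21 in crown meristem, 0.37 in plumule and 0.24 in plumule libraries 2 and 3 alone. The numbers of calls and their main comparisons with other tissues are given with and without plumule library 1. Other results use all libraries unless stated.

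Crown meristem and plumule differed in 7791 of 77548 kept transcripts with more of them lower than higher in crown meristem. Kept transcripts had a value of 1 or more in at least 2 of the 28 libraries. In crown meristem 2808 were higher (3.62%) and 4983 lower (6.43%), by limma's moderated test on log2(value + 1) with calls at an adjusted p (Benjamini-Hochberg) below 0.05 and a log2 difference of 1 or more in size. The median log2 difference was 1.55 among the higher and -1.57 among the lower transcripts. At least 4-fold on this scale were 703 higher and 1343 lower transcripts, at least 16-fold 54 and 53, and at least 64-fold 6 and 3. A further 6327 transcripts differed by a log2 of 1 or more but did not pass the adjusted p.

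**Figure D1:**
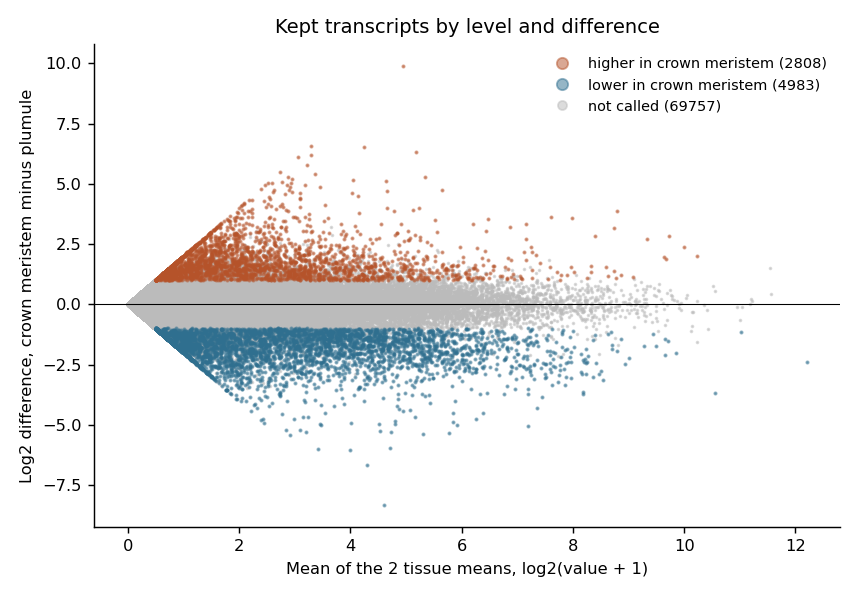
Each point is 1 of the 77548 kept transcripts, with the mean level of the tissues, log2(value + 1), on the x axis and the log2 difference, crown meristem minus plumule, on the y axis. The 2808 higher and 4983 lower calls are drawn over the transcripts not called, and the single point near a log2 difference of 10 is TRINITY_DN5408_c0_g1_i2.

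Without plumule library 1 the test called 7962 transcripts (10.3%), 2326 higher (3.00%) and 5636 lower (7.27%) in crown meristem. Of the higher calls 2143 were made both ways, which is 76.3% of those with the library and 92.1% of those without it. Of the lower calls 4197 were made both ways, 84.2% and 74.5% of the lists with and without it. No transcript was called in opposite directions by these fits.

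The balance of higher and lower calls depended on the scaling of the libraries. The lower share of calls was 64% as deposited and 70.8% without plumule library 1. It was 51.8% when every library was brought to the same sum, 52.9% under quantile normalization and 39.5% when medians were aligned. The sums of the deposited values were 711327 to 736450 in crown meristem and 800889 to 897662 in plumule. Over the 48005 transcripts whose mean reached 1 in either tissue, the median log2 difference was -0.101 as deposited, 0 without plumule library 1, 0.085 with equal sums, 0.048 under quantile normalization and 0.152 with aligned medians. Among those of these transcripts that passed a filter at 5 in 2 libraries it was -0.002 as deposited, so this median depended on the filter as well. The log2 differences given here carry the deposited scaling and were not centred.

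**Figure D2:**
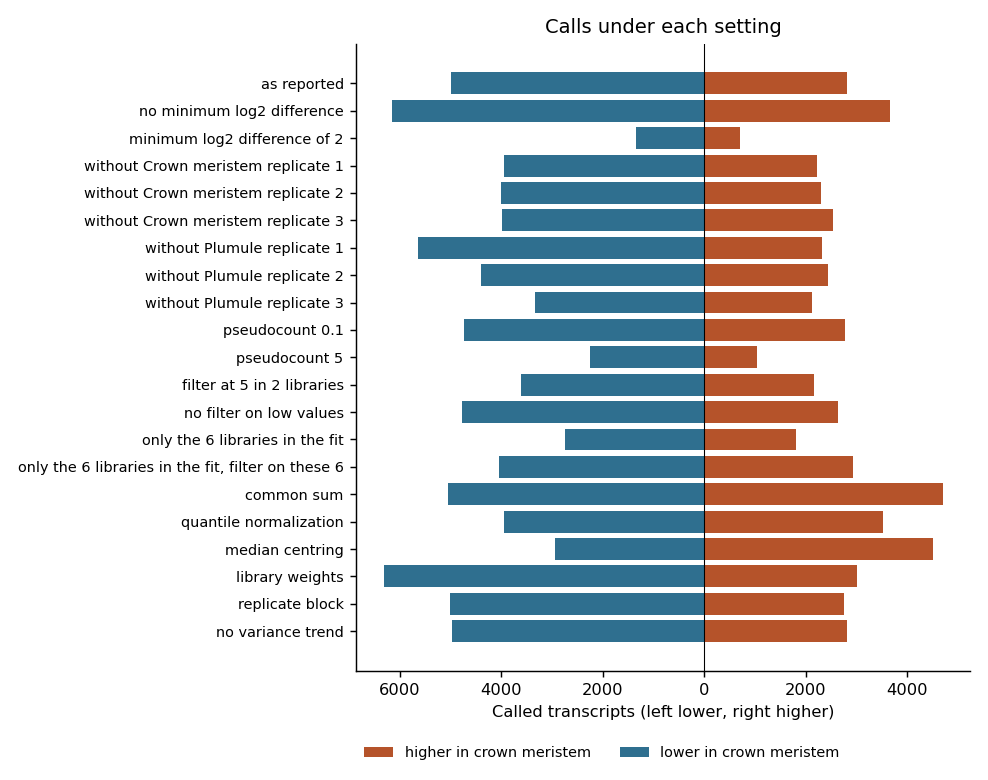
Bars give the number of transcripts called lower (left) and higher (right) in crown meristem under each setting, with the values as reported at the top. Lower calls outnumber higher ones in every setting shown apart from median centring, with 2940 lower and 4496 higher.

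Every crown meristem library lay above every plumule library in 2468 of the 2808 higher calls, and below in 3809 of the 4983 lower calls. Over all kept transcripts such separation occurred in 12.5% upward and 13.0% downward. The calls were chosen on these same libraries, so separation within them is largely fixed by the choice and is a description. The share of transcripts called lower was larger at each higher level, while the share called higher was largest at levels of 1 to 5. At a mean level under 1, 1.61% of 43564 transcripts were higher and 3.28% lower in crown meristem. At levels of 1 to 5, 7.27% were higher and 9.05% lower. Between 20 and 100 the shares were 4.23% and 13.2% of 5882, and at 100 or more they were 4.78% and 15.7% of 1109.

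The called transcripts held different parts of the RNA in the 2 tissues. The 4983 transcripts took 6.25% to 6.58% of the crown meristem totals, against 21.3% to 27.9% of the plumule totals. The 2808 higher transcripts took 10.1% to 10.6% in crown meristem, against 2.05% to 2.53% in plumule. These shares follow the contrast that chose the lists and are a description. Both tissues spread their RNA over many transcripts: the 10 most abundant held 3.81% ± 0.201 of the total in crown meristem and 4.37% ± 0.412 in plumule (SD, n = 3 each). The tissues shared 6 of their 10 most abundant transcripts. Of the top 10 in crown meristem 3 were higher there and 1 lower, and of the top 10 in plumule 3 were lower in crown meristem. Over all kept transcripts 3.62% were higher and 6.43% lower, and at mean levels of 100 or more 4.78% and 15.7%. Each top 10 was ranked on a tissue of the contrast, which favours calls in that direction, so these counts are a description.

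TRINITY_DN5408_c0_g1_i2 had the largest log2 difference among the higher calls without overlap between the tissues that were also made without plumule library 1. Its values were 963, 1225 and 714 in crown meristem libraries 1, 2 and 3, and it was listed at 0 in the 3 plumule libraries (limma adjusted p = 5.7e-10, and 2.8e-09 without plumule library 1). It ranked 37th by mean in crown meristem. Outside it, young root was highest with 26.2 and 16.4, panicle late followed with 6.35, 6.68 and 0, and all germinating seed, radicle and vegetative stem libraries were listed at 0.

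TRINITY_DN22072_c0_g2_i1 had the highest crown meristem mean among the higher calls that met the same conditions. It had 1675, 2936 and 2765 in crown meristem, against 486, 828 and 538 in plumule, with no overlap. The log2 difference was 1.99 (SE 0.51, limma adjusted p = 0.010), and 1.84 without plumule library 1 (adjusted p = 0.045). Its levels in both shoot tissues were small beside those of roots: 356033 ± 39850 in young root (n = 2) and 95396 ± 22125 in radicle (n = 3). Vegetative stem had 481 and 511, and young leaf 442 to 514, close to the plumule values.

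TRINITY_DN450_c0_g1_i1 had the largest log2 difference among the lower calls that met the same conditions. It had 0.363, 0.166 and 0.585 in crown meristem, against 382, 482 and 439 in plumule. The log2 difference came to -8.32 (SE 0.64, limma adjusted p = 1.5e-08), and to -8.41 without plumule library 1 (adjusted p = 5.4e-08). Germinating seed, at 2 days, had the highest level of all tissues, with 1722, 3146 and 1458. Radicle, taken on the same day as plumule, had 6.85, 12.3 and 6.78, and the transcript was listed at 0 in every young leaf and vegetative stem library.

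TRINITY_DN36129_c0_g1_i1 was the most abundant transcript in each plumule library, at 1.35%, 1.04% and 1.49% of their totals. It had 2235, 2086 and 1833 in crown meristem, against 12110, 8361 and 12733 in plumule, again with no overlap. It was lower in crown meristem by -2.41 on the log2 scale (SE 0.33, limma adjusted p = 2.0e-05), and -2.33 without plumule library 1 (adjusted p = 0.00017). Young leaf was higher still with 25455, 21746 and 24419, and vegetative stem had 2855 and 2708, near crown meristem.

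**Figure D3:**
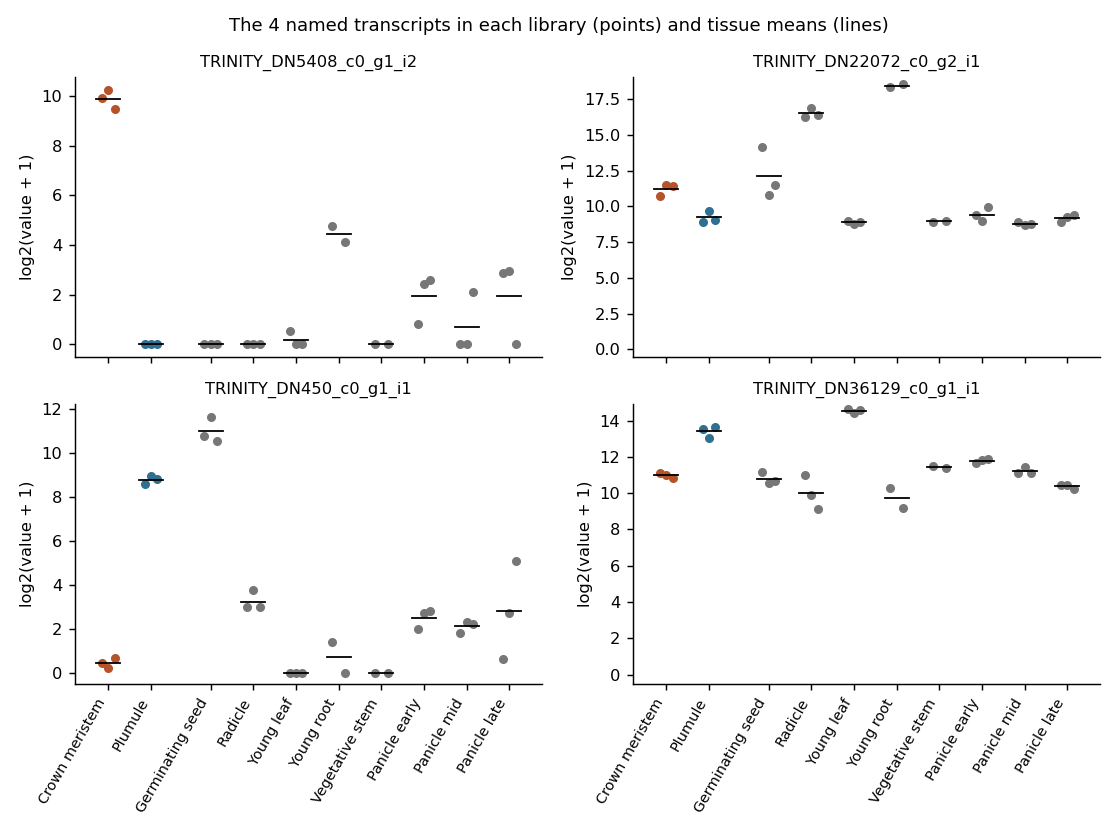
Points are libraries and lines are tissue means, log2(value + 1), with crown meristem and plumule at the left and the other 8 tissues by age. TRINITY_DN5408_c0_g1_i2 is at 714 to 1225 in crown meristem and at 0 in plumule, and TRINITY_DN450_c0_g1_i1 is at 382 to 482 in plumule and highest in germinating seed.

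Some transcripts were present in one tissue and listed at 0 in the other. In crown meristem 385 had 1 or more in every library and 0 in every plumule library, with a median level of 2.79. The reverse held for 310, with a median level of 3.22 in plumule. A mean of 10 or more was reached by 19 of the 385 and 16 of the 310. Of the 385, 22 were listed at 0 in every library of the other 8 tissues, and of the 310, 13 were. Over all kept transcripts this share was 1.9%. The 22 and the 13 passed the filter only through the tissue that defines their set, so these counts are a description.

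The second of these counts rose most when plumule library 1 was not required. Asking for fewer libraries can only raise such counts, and leaving out library 2 or 3 instead was not tried for them. When only plumule libraries 2 and 3 were counted, 581 transcripts were on in crown meristem and off in plumule, and 2216 were on in plumule and off in crown meristem. Of these 2216, 1858 were listed at 0 in plumule library 1 and 710 were listed at 0 in every library of the other 8 tissues. Of the 581, 22 were listed at 0 in every library of the other 8 tissues. The 710 passed the filter only through plumule libraries, so their count is a description. Why it was larger than that of the 581 was not tested. The median level of the 2216 was 2.54, and 38 had a mean of 10 or more. Panicle early reached a mean of 1 or more for 293 of them, germinating seed for 256 and vegetative stem for 125.

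The transcripts whose call depended on that library are described next; since the library defines these lists, its values in them are no test. The 1439 transcripts called lower only without it had a median log2 level of 0 in each crown meristem library. In plumule it was 0 in library 1, 1.37 in library 2 and 1.75 in library 3. Library 1 was listed at 0 for 1302 of them. The 786 called lower only with it were highest in library 1 in 500 cases, with a median log2 level of 3.18 there, 2.53 in library 2 and 2.82 in library 3. The 665 called higher only with it had medians of 2.47 to 2.60 in crown meristem and of 0.56, 1.08 and 1.0 in plumule libraries 1, 2 and 3.

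**Figure D4:**
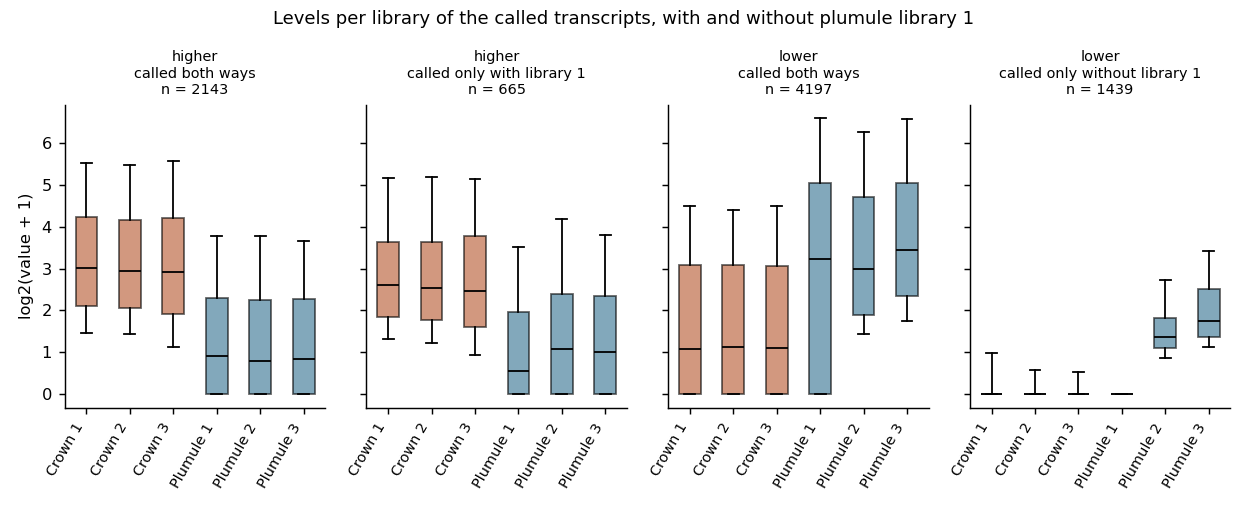
Boxes give the median and quartiles, and whiskers the 10th to 90th percentile, of log2(value + 1) in each crown meristem (orange) and plumule (blue) library for transcripts called both ways, only with or only without plumule library 1. The right panel holds 1439 transcripts whose median is 0 in crown meristem and in plumule library 1 but 1.37 and 1.75 in plumule libraries 2 and 3.

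The called transcripts were then followed in the 8 tissues outside the contrast. The libraries of these 8 tissues entered the filter and the pooled spread of the fit, so they are not independent of the calls. Young leaf was the highest of these tissues for 31.0% of the lower calls, against 14.3% of all kept transcripts, and panicle early for 16.9%, against 18.3%. For the higher calls vegetative stem (16.8%, against 11.8% of all kept) and young root (15.8%, against 10.4%) were the most frequent. Young root was highest for 4.33% of the lower calls. Without plumule library 1 the young leaf share of the lower calls was 25.2%, that of panicle early 22.0%, and the young root share of the higher calls 16.1%. A further 8.16% of the higher and 12.1% of the lower calls were listed at 0 in all 8 tissues, against 1.90% of all kept; such transcripts passed the filter only through crown meristem or plumule.

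**Figure D5:**
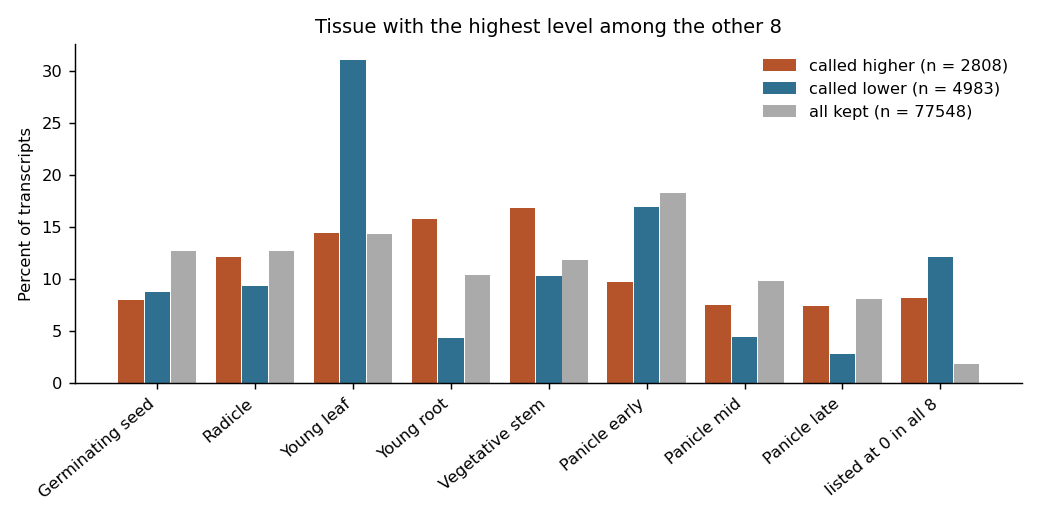
Bars give the percent of the 2808 higher calls, the 4983 lower calls and all 77548 kept transcripts whose highest mean log2 level among the 8 tissues outside the contrast was in the tissue named. Young leaf takes 31.0% of the lower calls, and vegetative stem and young root lead the higher calls with 16.8% and 15.8%.

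Vegetative stem against young leaf, a later stem against a leaf, shares no library with the contrast. It was tested in the same fit with the same pooled spread, so its calls are not independent of those of the contrast. Vegetative stem had 11.9% of kept transcripts higher and 9.66% lower than young leaf. Of the transcripts lower in crown meristem, 1503 (30.2%) were lower in vegetative stem than in young leaf and 547 (11.0%) higher. Of those higher in crown meristem, 790 (28.1%) were higher in vegetative stem and 402 (14.3%) lower. The 1503 were 20.1% of all transcripts lower in vegetative stem, and the 790 were 8.56% of all that were higher. With the lists made without plumule library 1, 22.9% of the lower calls were lower in vegetative stem and 28.7% of the higher calls were higher. The shares over all kept transcripts are not matched for level. Between crown meristem and plumule 4.89% of transcripts with a mean level under 1 were called, against 16.3% to 20.5% at higher levels. Whether the overlap exceeds that of transcripts of like level was not tested.

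The same transcripts were followed in the root, where the later tissue is young root and the earlier one radicle. Young root at 13 days against radicle at 3 days had 10.5% of kept transcripts higher and 7.93% lower. These shares are again not matched for level and come from the same fit. Of the 2808 transcripts higher in crown meristem, 578 (20.6%) were higher in young root and 275 (9.79%) lower. Of the 4983 lower in crown meristem, 559 (11.2%) were lower in young root and 408 (8.19%) higher. As shares of the root lists, the 578 were 7.07% of the higher and the 559 were 9.09% of the lower transcripts. With the lists made without plumule library 1, 505 of 2326 higher calls (21.7%) were higher in young root, while 471 of 5636 lower calls (8.36%) were lower there, close to the 7.93% of all kept transcripts.

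Whether the later-minus-earlier difference of the shoot tissues differed from that of the roots was tested as an interaction in the same limma fit. It passed for 13166 transcripts (17.0%), 5609 with the shoot difference higher (7.23%) and 7557 with it lower (9.74%). Without plumule library 1 it passed for 14151 (18.2%). Among the calls of the contrast, 1209 of 2808 higher transcripts (43.1%) had a higher shoot than root difference, and 2247 of 4983 lower transcripts (45.1%) a lower one. The interaction contains the difference that chose these lists, so this agreement in sign is largely fixed by the choice and is a description. Most of the 13166 were not called between crown meristem and plumule: 3715 of them were called lower and 4359 higher in young root than in radicle. The lower share of interaction calls was 57.4% as deposited, 24.6% with equal sums, 42.8% under quantile normalization and 43.7% with aligned medians, so the direction that prevailed depended on the scaling.

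Among the named transcripts, TRINITY_DN22072_c0_g2_i1 differed by a log2 of 1.99 in the shoot comparison and 1.92 in the root comparison, and the interaction did not pass (0.07, SE 0.76, limma adjusted p = 1.0). TRINITY_DN450_c0_g1_i1 was lower in both, with -8.32 and -2.53, and TRINITY_DN36129_c0_g1_i1 differed by -2.41 and -0.28.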

How the data were processed

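RNA was sequenced from 28 libraries of 10 tissues, and the 3 crown meristem and 3 plumule libraries were compared. The authors built a de novo assembly with Trinity and estimated TPM with kallisto, per the series design text. The submitters' processing notes also name CASAVA and Trimmomatic, without versions. By its title, the deposited table holds this expression signal after TMM scaling by the authors. Such values keep no read totals, so depth is unknown, and no counting interval or count model was used.

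Every value column matched 1 sample by the code in its title. Of 101935 transcripts, the 77548 that reached 1 in 2 or more libraries were kept. limma 3.58.1 in R 4.3.3 was fitted to log2(value + 1) over all 28 libraries, 1 mean per tissue, no covariates, with an intensity trend and 18 residual degrees of freedom; two-sided p-values were adjusted over all kept transcripts. Differences on this scale understate changes of low transcripts. Tables were summarised in Python 3.11.15 with pandas 2.3.3, and the fit was tested on simulated data. No assembled gene had more than 1 row, and near-identical copies can share reads. Both tissues carry library identifiers of the same series. Across the atlas the identifiers fall into series S00F4 with 15 libraries and S00FB with 13, and the fit held no term for these. Whether the series affects the comparisons with other tissues was not tested.

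The named transcripts were fixed by rule: among calls without overlap between the tissues and made in the same direction without plumule library 1, the largest log2 difference and the highest mean in each direction. The comparison, rule and lists were chosen with earlier results of these data known. Alternatives were other pseudocounts, filters, scalings, size thresholds, library weights, the replicate number as a block, a fit without the trend, fits of the 6 libraries only and leaving out single libraries.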

Additional observations from a re-analysis of the deposited data

Results flagged for a closer look

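A difference between groups drew attention in the shoot and root comparisons, which share no library but come from the same fit. For 13166 transcripts the difference of crown meristem minus plumule differed from that of young root minus radicle by limma's interaction test (adjusted p below 0.05, log2 difference of at least 1). The ages differ, 3 to 26 days in the shoot and 3 to 13 days in the root.

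Of the named transcripts, 3 passed this test. They were chosen for their crown meristem minus plumule difference or level, which the interaction reuses, so their passing is a description. TRINITY_DN5408_c0_g1_i2 had 968 ± 256 in crown meristem and was listed at 0 in plumule, against 21.3 ± 6.88 in young root and 0 in radicle (limma adjusted p = 0.00015). TRINITY_DN450_c0_g1_i1 had an interaction log2 difference of -5.79 (SE 0.96, limma adjusted p = 0.00013): 0.371 ± 0.210 in crown meristem and 435 ± 50.1 in plumule, against 0.802 ± 1.13 in young root and 8.63 ± 3.15 in radicle. TRINITY_DN36129_c0_g1_i1 had -2.13 (SE 0.49, limma adjusted p = 0.0030), with 2051 ± 204 in crown meristem and 11068 ± 2365 in plumule, against 906 ± 457 in young root and 1190 ± 788 in radicle. SDs are over 3 libraries, or 2 in young root.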

How the results depend on the processing

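The count of 7791 calls was 5469 to 7962 when single libraries were left out, lowest without plumule library 3 and highest without plumule library 1; higher calls ran from 2127 to 2527 and lower calls from 3342 to 5636. It was 2046 with a minimum log2 difference of 2. With a pseudocount of 5 it was 3281 (1031 higher, 2250 lower). With only the 6 libraries in the fit it was 4559 (1805 higher, 2754 lower), and 6962 in the same fit with the filter set on these 6 libraries, an alternative chosen after seeing the data. Higher calls numbered 4692 with a common sum and 4496 with median centring, which left 2940 lower. The cause of these shifts was not tested. The interaction count ran from 11675 to 14577 without single libraries.

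Replicate numbers did not pair the libraries: deviations of same-numbered libraries from their tissue means correlated at -0.029, -0.006 and -0.036, and the replicate block gave 7770 calls. TRINITY_DN5408_c0_g1_i2 and TRINITY_DN450_c0_g1_i1 kept their calls in all 18 alternatives. TRINITY_DN22072_c0_g2_i1 and TRINITY_DN36129_c0_g1_i1 lost theirs with only the 6 libraries in the fit (limma adjusted p = 0.47 and 1.0) and kept them in the other 17.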

Other observations

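Transcripts of 1 assembly read cluster can be copies, alleles or splice forms of related genes, and their sequences were not used here. Of 8543 clusters with 2 or more kept transcripts, 438 had 2 or more calls between crown meristem and plumule. In 109 of these all calls were higher in crown meristem, in 223 all were lower, and in 106 calls went in both directions. The cluster with the most lower calls had 6 among its 11 kept transcripts, and no cluster had more than 4 higher calls. The 8543 clusters held 2822 of the 7791 calls. Over all kept transcripts 3.62% were called higher and 6.43% lower. Whether the cluster counts differ from what these shares would give was not tested, so they are a description.

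The presence of the lower calls in other tissues depended on plumule library 1. The higher calls had a mean of 1 or more in a median of 5 of the other 8 tissues, as had the lower calls, against 3 for all kept transcripts. In none of the 8 did 14.1% of the higher and 23.8% of the lower calls reach a mean of 1, against 17.8% of all kept transcripts. Without plumule library 1 the median was 5 for the higher and 2 for the lower calls, and 14.9% of those higher and 36.1% of those lower calls reached a mean of 1 in none of the 8. Of those lower calls 13.6% were listed at 0 in all 8, against 1.9% of all kept transcripts. These passed the filter only through crown meristem or plumule, so the shares are partly fixed by filter and call and are a description.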
